A study of Mus musculus with 2 samples.

Results

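The mir-302 and mir-367 cluster is a group of 5 miRNA hairpins on mouse chromosome 3 that are cut from 1 transcript. Its members, Mir302a, Mir302b, Mir302c, Mir302d and Mir367, were 5 of the 1973 miRNA genes with deposited counts. They were chosen by their place in the genome and by their names, with earlier sense-strand levels of these same libraries in view. Their levels, their order and their difference between the libraries are therefore given as a description. All 5 identifiers in the tables, with the version removed, matched GENCODE M21 symbols.

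The tissue was midbrain of B6NCrl mouse embryos at embryonic day 16.5, with no treatment, transgene or mutant allele given in the labels. Each of the 2 libraries was a biological replicate made from pooled male and female embryos, and the pool of replicate 2 came from 37 embryos. No number of embryos was available for replicate 1. Reads of inserts below 30 nt were counted per hairpin, so the values do not separate the arms of a hairpin. Levels are in CPM, sense-strand counts scaled to the sum of sense reads over all miRNA genes of a library, from 6151299 reads in replicate 1 and 5312642 in replicate 2. A read of this size spans a whole mature miRNA, so CPM was not divided by length unless stated.

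miRNAs guide Argonaute proteins to mRNAs, mainly through the seed, which is bases 2 to 8 of the mature strand. The mir-302 and mir-367 cluster is known from embryonic stem cells and the early embryo, where its transcription depends on pluripotency factors and falls as cells differentiate. miR-302 is known to repress inhibitors of the cell cycle and the Nodal antagonists Lefty1 and Lefty2. The mir-290 to mir-295 cluster is the other large miRNA cluster of mouse pluripotent cells and carries a related seed.

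The mature arms of the members are shown first because their shared bases set which reads can be told apart and which other miRNAs belong beside them. RefSeq (GRCm38.p6) held 9 arms of the 5 hairpins, and miR-302a-3p was not among them. Capitals mark the seed.

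miR-302b-3p: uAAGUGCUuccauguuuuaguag

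miR-302d-3p: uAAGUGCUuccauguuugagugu

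miR-302c-3p: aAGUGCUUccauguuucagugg

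miR-367-3p: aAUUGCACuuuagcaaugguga

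miR-302a-5p: aCUUAAACgugguuguacuugc

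miR-302b-5p: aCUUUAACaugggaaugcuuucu

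miR-302c-5p: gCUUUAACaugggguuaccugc

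miR-302d-5p: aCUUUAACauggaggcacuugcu

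miR-367-5p: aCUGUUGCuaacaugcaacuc

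The 3p arms of miR-302b and miR-302d had the seed AAGUGCU. As listed, miR-302c-3p began 1 base later, so its bases 2 to 8 read AGUGCUU. Over 23 aligned bases, miR-302b-3p and miR-302d-3p differed at 3, and each differed from miR-302c-3p at 2 of 22. The 5p arms were less alike, differing at 5 to 7 bases of 22 or 23, and only those of miR-302b, miR-302c and miR-302d shared a seed. miR-367 shared no seed with the other members on either arm.

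The 4 mir-302 hairpins had a run of 16 bases in common, aagugcuuccauguuu, found in 4 of the 1005 RefSeq mouse hairpins (0.398%). It covered bases 2 to 17 of miR-302b-3p and miR-302d-3p and bases 1 to 16 of miR-302c-3p. Mir302a and Mir302b shared the longest run of any pair, at 20 bases. Outside the cluster, no listed hairpin shared more than 13 bases with Mir302b or Mir302d, 12 with Mir302c, and 11 with Mir302a or Mir367. A read that lies wholly within a shared run cannot be placed at 1 hairpin. The listed arms of the members differ over their full length, but miR-302a-3p could not be compared and the alignment settings are not given. The tables set aside 35.3% and 36.5% of each library's reads as multimapping, with no gene given, so how many of them came from this cluster was not tested.

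On mm10 the cluster ran along the + strand of chromosome 3 over 580 bases. The order was Mir302b (chr3:127545228-127545301, ENSMUSG00000076252.1), Mir302c (chr3:127545363-127545430, ENSMUSG00000065482.1), Mir302a (chr3:127545496-127545564, ENSMUSG00000065552.1), Mir302d (chr3:127545624-127545689, ENSMUSG00000065447.1) and Mir367 (chr3:127545733-127545807, ENSMUSG00000065413.2). The hairpins were 66 to 75 bases long. All 5 lay in 1 intron of Larp7 (chr3:127544279-127545825, 1547 bases), which encodes a protein of the 7SK ribonucleoprotein and is transcribed from the opposite strand. These coordinates are those of M21 and RefSeq. The counts were made with M4, whose coordinates were not used here, and the identifiers were matched without their version. No M21 gene of the + strand other than the hairpins overlapped them. The next gene of that strand was Zgrf1, which began 7682 bases beyond Mir367, and the proneural gene Neurog2 began 87328 bases beyond it.

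All hairpins but Mir367 gave reads in both libraries. Mir302a was the highest, with 1777 reads in replicate 1 and 1088 in replicate 2, or 289 CPM (95% Poisson interval 276 to 303) and 205 CPM (193 to 217). Mir302d followed with 1516 and 1021 reads, or 246 CPM (234 to 259) and 192 CPM (181 to 204). Both hairpins stood higher in replicate 1. Mir302b gave 1131 and 624 reads, or 184 CPM (173 to 195) and 117 CPM (108 to 127). Mir302c gave 154 and 101 reads, or 25.04 CPM (21.2 to 29.3) and 19.0 CPM (15.5 to 23.1). These intervals cover counting error only, since reads without molecular identifiers are not independent molecules.

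As means over n = 2 libraries, Mir302a stood at 247 ± 59.5 CPM (SD), Mir302d at 219 ± 38.4, Mir302b at 151 ± 47.0 and Mir302c at 22.0 ± 4.26. Among all 1973 genes these were ranks 160, 176, 197 and 280. With 10 or more reads in both libraries, 411 genes were called detected, and the 4 mir-302 hairpins were among them. Summed over the 5 hairpins, the cluster held 4578 reads in replicate 1 and 2834 in replicate 2, or 744 and 533 CPM (639 ± 149, SD, n = 2), which was 0.0639% of miRNA reads.

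The order Mir302a, Mir302d, Mir302b, Mir302c was the same in both libraries, but its first step was small. Mir302a exceeded Mir302d by 1.17-fold in replicate 1 (95% interval 1.09 to 1.26) and by 1.07-fold in replicate 2 (0.977 to 1.16). The interval of replicate 2 included 1, and the means of these neighbours lay within 1 SD of each other. Mir302d exceeded Mir302b by 1.34-fold (1.24 to 1.45) and 1.64-fold (1.48 to 1.81), both beyond counting error. Their means over the libraries differed by less than the sum of their SDs. These SDs also hold the shift between the libraries that the hairpins shared, so they do not measure the spread of a step within a library. Mir302b exceeded Mir302c by 7.34-fold (6.20 to 8.75) and 6.18-fold (5.00 to 7.70), a step far wider than either SD. Divided by hairpin length, the order stayed the same, from 3.58 CPM per base for Mir302a through 3.32 and 2.04 to 0.324 for Mir302c.

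**Figure D1:**
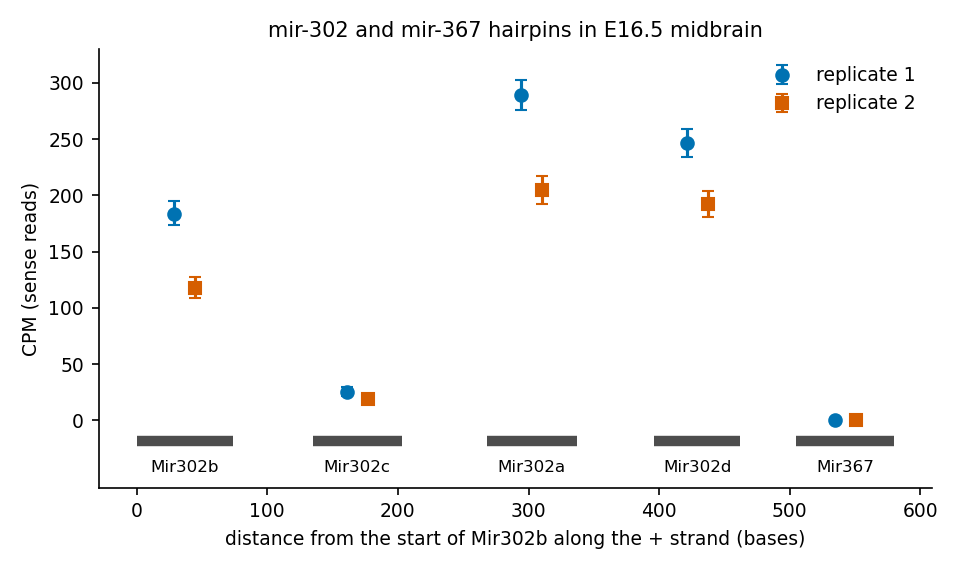
CPM of each hairpin against its distance in bases from the start of Mir302b. Points are single libraries, bars are 95% Poisson intervals where there were reads, and dark blocks mark the hairpins. Mir302a and Mir302d are highest in both libraries, Mir302c lies at 25.04 and 19.0 CPM between higher neighbours, and Mir367 has 0 reads.

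Position along the transcript and level did not follow each other. Mir302c, the second hairpin, was the lowest of those with reads although it lay between Mir302b and Mir302a, with 61 bases to the former and 65 to the latter. Mir367, the last hairpin, had 0 reads on the sense strand in both libraries. It also had 0 reads on the opposite strand, as did the other 4 members. Whether M4 placed Mir367 where M21 does was not tested, and the limits that follow hold for the interval that was counted. A count of 0 was taken to allow up to 3 reads, or 0.488 CPM in replicate 1 and 0.565 CPM in replicate 2. The counts of Mir302a were 592-fold that limit in replicate 1 and 363-fold in replicate 2, and those of Mir302c 51.3-fold and 33.7-fold. These folds leave out the counting error of Mir302a and Mir302c, so they are not lower bounds. Mir367 was 1 of 1223 genes with no sense read in either library.

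The predicted folding of the hairpins did not follow the levels either. Minimum free energies from RNAfold were -34.5 kcal/mol for Mir367, -31.7 for Mir302a, -28.6 for Mir302c, -27.5 for Mir302d and -23.3 for Mir302b. GC content ran from 39.2% in Mir302b to 47.1% in Mir302c, with Mir367 at 42.7%. Thus the hairpin with the lowest predicted energy was the one without reads.

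The makeup of the cluster's reads was close in both pools. Mir302a held 38.8% of them in replicate 1 (95% Clopper-Pearson interval 37.4 to 40.2) and 38.4% in replicate 2 (36.6 to 40.2). Mir302c held 3.36% (2.86 to 3.93) and 3.56% (2.91 to 4.31). Mir302d held 33.1% (31.8 to 34.5) in replicate 1 and 36.0% (34.3 to 37.8) in replicate 2, while Mir302b held 24.7% (23.5 to 26.0) and 22.0% (20.5 to 23.6). The intervals of each hairpin overlapped between the libraries, those of Mir302b and Mir302d by little. Overlap of intervals does not show equal shares, and the difference in shares between the libraries was not tested. For Mir367 the same limit of 3 reads came to 0.0655% and 0.106% of the cluster's reads.

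**Figure D2:**
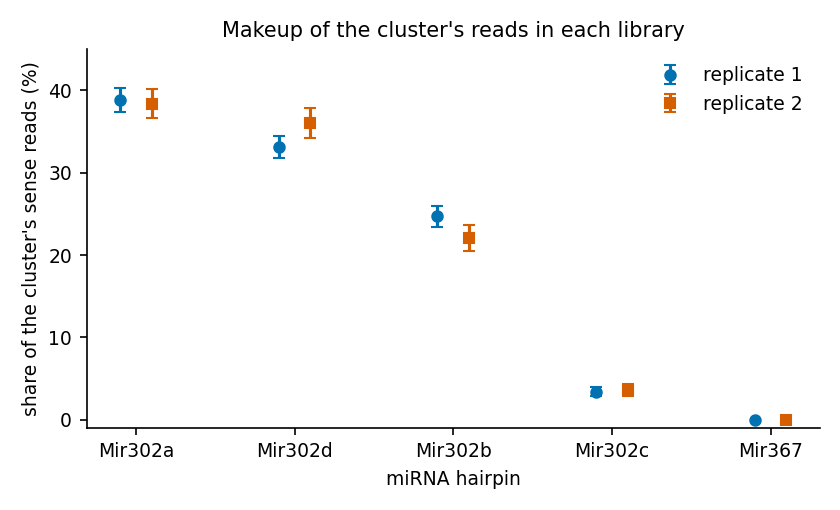
Share of the cluster's sense reads held by each hairpin, in percent, with exact 95% binomial intervals where there were reads, for each library. Mir302a stands at 38.8% and 38.4%, whereas Mir302d is at 33.1% and 36.0% and Mir302b at 24.7% and 22.0%.

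All 4 hairpins with reads were lower in replicate 2. The log2 ratio of replicate 2 over replicate 1 was -0.65 for Mir302b, -0.50 for Mir302a, -0.39 for Mir302c and -0.36 for Mir302d, with a median of -0.45 over these 4. Over all 411 detected genes the median ratio was -0.06, and 246 (59.9%) lay below 0. Among 177 other detected genes at levels within 2-fold of the members' range, the median was -0.06, the central 50% ran from -0.23 to 0.12, and the 5th percentile was -0.61. Mir302b lay below that percentile and the other members above it. The summed cluster had a ratio of -0.48 (95% counting interval -0.55 to -0.41), or 1.40-fold higher in replicate 1. In bulk tissue, fewer cells of a type and less RNA per cell cannot be told apart.

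By a two-sided exact binomial test on reads, with Benjamini-Hochberg adjustment over the 411 genes, 3 members were called higher in replicate 1. Their adjusted p-values were 4.3e-19 for Mir302b, 1.06e-18 for Mir302a and 2.87e-09 for Mir302d, against 0.0678 for Mir302c. The same test called 29.2% of all detected genes in that direction (120 genes, against 75 higher in replicate 2), and since the members were chosen with these levels known, nothing is read from their count. TMM or RLE scaling gave 95 and 90 genes in these directions and the same number of members. The test compares 2 libraries and holds no spread between pools. When a spread was assumed, with edgeR's exact test at a biological coefficient of variation of 0.2, 0 members and 1.22% of genes were called higher in replicate 1. Each member then had an adjusted p of 1, and the lowest unadjusted p was 0.124, for Mir302b.

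**Figure D3:**
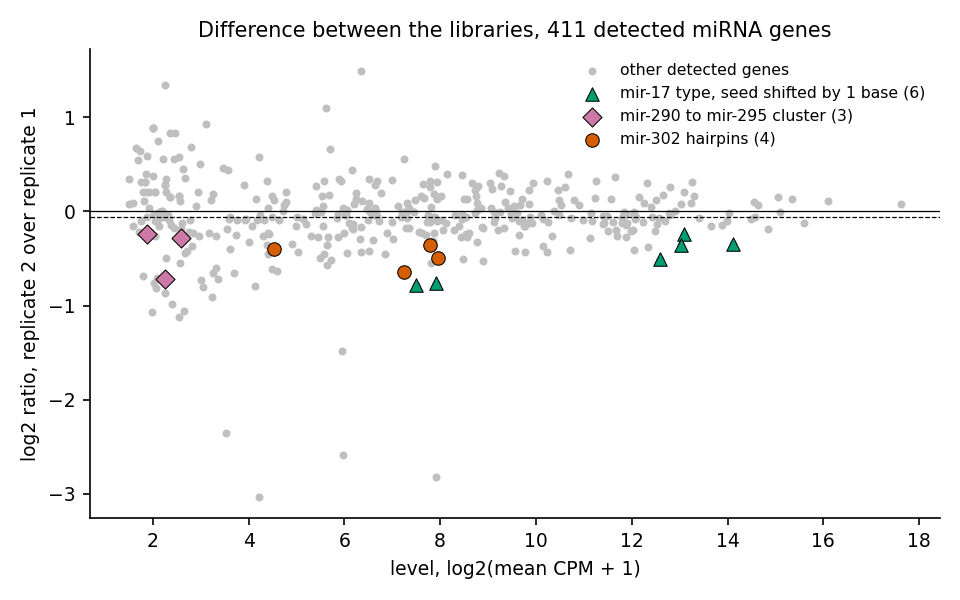
Log2 ratio of replicate 2 over replicate 1 against level, log2(mean CPM + 1), for 411 detected genes. The solid line is 0 and the dashed line the median of -0.06. The 4 mir-302 hairpins, the 3 detected hairpins of the mir-290 to mir-295 cluster and the 6 detected hairpins with a seed shifted by 1 base all lie below 0.

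Other marker lists differed between the pools alongside the cluster. In the list for epithelium, the mir-200 family with Mir203 and Mir205, 7 of 7 hairpins were called higher in replicate 1 by the binomial test, against 29.2% of all detected genes, with a median ratio of -2.35. With edgeR's exact test at a coefficient of variation of 0.2, 5 of the 7 were still called, which were all 5 genes called in that direction. All 7 hairpins of the list summed to 1327 CPM in replicate 1 and 689 CPM in replicate 2. In the list for proliferating progenitors, which holds the mir-17 family clusters, 12 of 14 were called higher in replicate 1 and 0 in replicate 2 by the binomial test and 0 by edgeR's exact test, with sums of 48596 and 37993 CPM. In both lists 0 markers had 0 reads. The blood list was higher in replicate 2, with 410 CPM in replicate 1 and 487 in replicate 2. The binomial test called 2 of its 4 hairpins higher in replicate 2, against 75 of all 411 detected genes. In the list for midbrain and neurons that test called 8 of 15 detected hairpins higher in replicate 2 and 3 higher in replicate 1. The median ratio was 0.21, the direction opposite to the mir-302 hairpins, but it was the value of Mir124a-2, at 3.86 CPM. The list summed to 66859 CPM in replicate 1 and 66094 in replicate 2, most of it from Mir149, Mir137, Mir135b and Mir153. With edgeR's exact test, 0 of the blood and 0 of the neuronal hairpins were called. The part of these lists in the difference of the mir-302 hairpins was not tested.

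Markers of the labelled tissue were uneven in level. Of 17 hairpins of the midbrain and neuron list found in the tables, 15 were detected and 0 had no reads, led by Mir149, Mir137 and Mir135b at 25498 ± 892, 15108 ± 1072 and 12828 ± 996 CPM. Hairpins of miR-124 and miR-9, which are known as defining miRNAs of neurons and neural progenitors, were mostly near the floor. Mir124a-1, Mir124a-2 and Mir124a-3 stood at 5.04, 3.86 and 0.54 CPM and Mir9-2 at 1.34 CPM, whereas Mir9-3 stood at 405 ± 59.6 CPM. Mir9-3 apart, these hairpins were in mean CPM below all 7 epithelial and all 4 blood markers, among them Mir203 at 586 ± 57.4 and Mir451a at 151 ± 41.0 CPM. The mir-9 hairpins share both mature arms in RefSeq, and the Mir124a hairpins are numbered copies too. Reads that mapped to several places were set aside, so counts of copied hairpins can understate their miRNAs. How multimapping reads would change the levels of copied hairpins was not tested. Mir9-2 and Mir124a-3 had under 10 reads in at least 1 library. The muscle list summed to 39.8 and 38.4 CPM, with Mir1a-1, Mir133a-1 and Mir133a-2 at 0 reads. These 3 are numbered copies as well, and the same limit holds for them.

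The mir-290 to mir-295 cluster of chromosome 7, the other pluripotency cluster, was far lower. Its 7 hairpins summed to 98 reads in replicate 1 and 55 in replicate 2, or 15.9 CPM (12.9 to 19.4) and 10.4 CPM (7.80 to 13.5). The 4 mir-302 hairpins stood 46.7-fold and 51.5-fold higher in CPM, and 54.9-fold and 61.1-fold higher in CPM per hairpin base. Mir293 led with 34 and 24 reads, followed by Mir294 with 29 and 15 and Mir292 with 18 and 13. Mir291a had 9 and 3 reads, Mir291b and Mir295 each had 4 and 0, and Mir290a had 0 in both. The 3 detected hairpins also had ratios below 0 (-0.28, -0.72 and -0.24), none of which passed the binomial test (adjusted p of 0.682, 0.222 and 0.831).

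Members of both pluripotency clusters share the seed AAGUGCU, carried by 5 of 1738 mature arms in RefSeq (0.288%). The arms outside the mir-302 cluster are printed to show that the likeness ends soon after the seed.

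miR-294-3p: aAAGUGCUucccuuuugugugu

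miR-291a-3p: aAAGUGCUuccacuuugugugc

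miR-295-3p: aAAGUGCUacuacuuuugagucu

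Mir302b and Mir302d summed to 430 and 310 CPM in replicates 1 and 2, whereas Mir294, Mir291a and Mir295 summed to 6.83 and 3.39 CPM. Counts are per hairpin, so these sums also hold reads of the 5p arms. Mir302a is not in the sum, because its 3p arm was not listed and its listed 5p arm has another seed. Its hairpin holds the run of 16 bases given above, which contains AAGUGCU. The sum may therefore leave out reads with this seed.

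The mir-17 family carries nearly the same bases, moved by 1 position. The 6 bases AAGUGC at bases 2 to 7 of miR-302b-3p and miR-302d-3p stood at bases 3 to 8 of 8 arms (0.460% of 1738), among them those of the mir-17 family, known to promote proliferation of progenitor cells. The most abundant of these arms, from Mir17, Mir93, Mir106b and Mir20a, are printed with bases 2 to 8 in capitals.

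miR-17-5p: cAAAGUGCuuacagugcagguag

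miR-93-5p: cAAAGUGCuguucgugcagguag

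miR-106b-5p: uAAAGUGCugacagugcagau

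miR-20a-5p: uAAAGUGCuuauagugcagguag

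Mir17 stood at 19766 and 15604 CPM in replicates 1 and 2. Mir93 stood at 9402 and 7944, Mir106b at 9352 and 7287, and Mir20a at 7254 and 5094 CPM. Mir106a (303 and 179 CPM) and Mir20b (228 and 132 CPM) of the X chromosome were near the mir-302 hairpins in level, and Mir105 and Mir6383 had 0 reads. The 8 hairpins summed to 46305 and 36240 CPM. That was 62.2-fold and 67.9-fold the sum of the 4 mir-302 hairpins (49.3-fold and 53.8-fold per hairpin base), so the mir-302 hairpins gave 1.58% and 1.45% of the reads of both groups together. The detected 6 had ratios from -0.79 for Mir20b to -0.24 for Mir93, the same direction as the members.

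The seed of miR-367-3p, AUUGCAC, belonged to 7 of 1738 arms (0.403%) and was well represented by other hairpins. Shown beside miR-367-3p are an arm that also shares its first base and that of the most abundant hairpin.

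miR-367-3p: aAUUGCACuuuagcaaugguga

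miR-363-3p: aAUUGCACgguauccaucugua

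miR-92b-3p: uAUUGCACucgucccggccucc

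All 6 hairpins with this seed other than Mir367 were detected. They summed to 6327 CPM in replicate 1 and 5481 in replicate 2. Mir92b led at 3803 ± 223 CPM (SD, n = 2), followed by Mir92-1 at 1130 ± 205, Mir25 at 378 ± 49.3, Mir363 at 355 ± 87.0 and Mir32 at 189 ± 20.6. Mir92-2 stood at 49.0 ± 13.4 CPM. It carries the same mature 3p arm as Mir92-1, so the split of reads between them is uncertain.

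**Figure D4:**
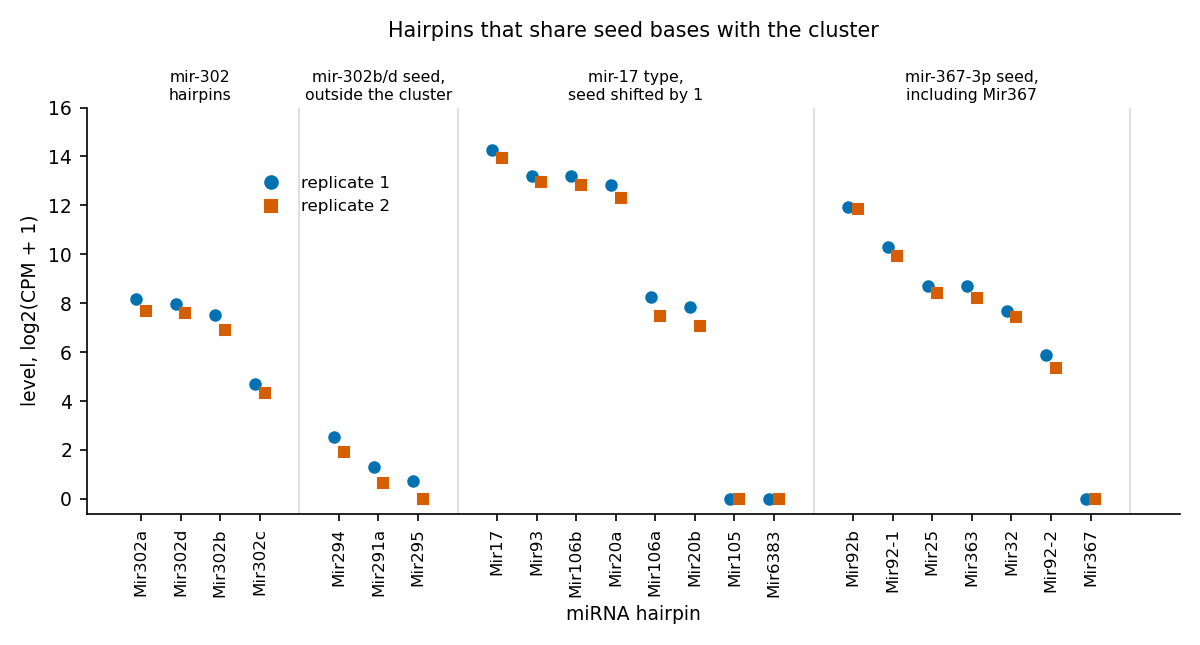
Level, log2(CPM + 1), of each hairpin in each library, grouped by shared seed bases. The mir-302 hairpins lie above the 3 hairpins outside the cluster with the miR-302b and miR-302d seed and below Mir17, Mir93, Mir106b and Mir20a. Mir367 is at 0 beside 6 hairpins with its seed.

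The range of levels was set beside that of other clusters of miRNA genes. With same-strand neighbours at most 10 kb apart and 4 or more genes, the tables held 15 clusters, of which the mir-302 and mir-367 cluster ranked 9 by summed CPM. Of these, 12 had 3 or more detected hairpins. The highest detected hairpin, Mir302a, exceeded the lowest, Mir302c, by 11.2-fold here, which leaves out Mir367 and the wider folds over its limit given above. In the other 11 clusters this fold ran from 1.87 to 2981 with a median of 142, and it was wider in 9 of them. Some of their lowest hairpins are numbered copies, such as Mir19b-1 at 8.50 CPM and Mir19b-2 at 2.54 CPM. Reads that mapped to several places were set aside, so such folds may be too wide, by an amount that was not tested. A hairpin without reads was not particular to this cluster, since 6 of the other 11 also had at least 1. All detected hairpins had a ratio below 0 in 3 of the other 11, as they did here. These are descriptions, and the clusters differ in their number of genes.

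The clusters nearest in summed CPM were those from Mir363 to Mir106a on the X chromosome, from Mir341 to Mir370 on chromosome 12 and from Gm22650 to Mir1264 on the X chromosome. The first was the most like it in compactness, with 6 hairpins in 875 bases. It summed to 1062 and 686 CPM, with 5 of 6 ratios below 0 and a median ratio of -0.54, against -0.45 for the mir-302 hairpins. The cluster from Mir341 to Mir370 summed to 2235 and 2310 CPM with a median ratio of 0.12, and that from Gm22650 to Mir1264 to 147 and 125 CPM with a median of 0.21.

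**Figure D5:**
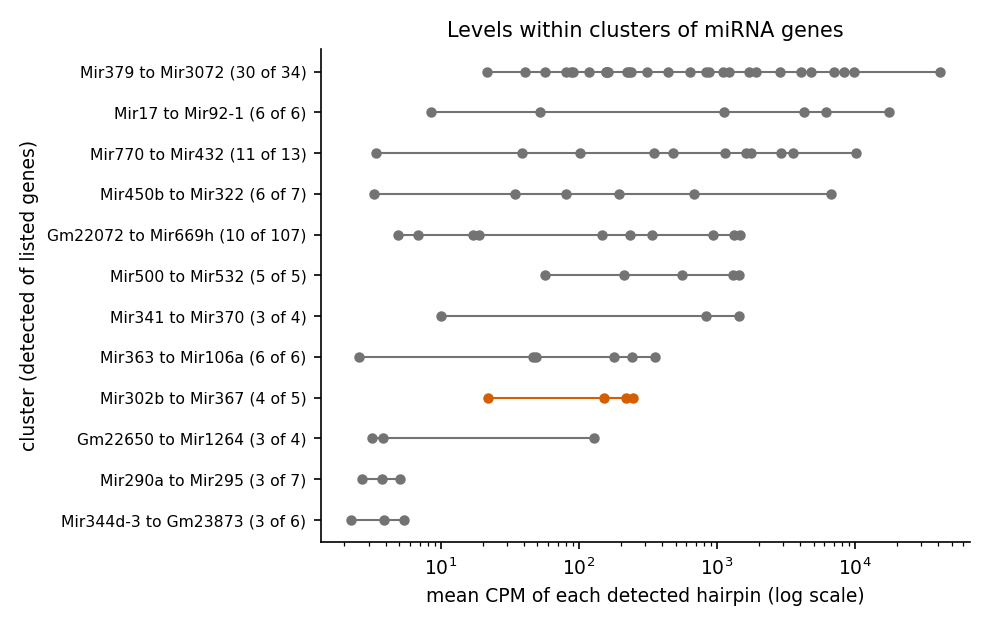
Mean CPM of each detected hairpin on a log axis, for the 12 clusters of miRNA genes with 3 or more detected hairpins, ordered by summed CPM. The mir-302 and mir-367 cluster, in orange, spans 22.0 to 247 CPM with 4 of its 5 hairpins.

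On chromosome 3 the cluster stood alone among the counted miRNA genes that had an M21 position. The 79 counted genes without an M21 match could not be placed. M21 also lists a miRNA gene 63980 bases before the cluster, which was not among the counted genes. The nearest placed and counted genes on each side, Gm22066 at 4.53 Mb before and Gm24515 at 2.14 Mb after, had 0 reads in both libraries. The nearest detected genes were Mir760, 5.25 Mb before, at 491 and 439 CPM, and Mir7j, 12.5 Mb after, at 47.5 and 53.5 CPM. The 8 placed and counted miRNA genes between Mir760 or Mir7j and the cluster gave 0 reads.

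The genes closest to each member in level were found by the Euclidean distance between their log2(CPM + 1) values in the 2 libraries. For Mir302a these were Mir1306, Mir106a and Mir669l, at distances of 0.18 to 0.21. For Mir302d they were Mir1306, Mir217 and Mir494, at 0.10 to 0.13. For Mir302b they were Mir301b, Mir20b and Mir1264, at 0.34 to 0.38, so no gene outside the cluster matched both of its values as closely as for the other members. For Mir302c they were Mir1968, Mir8114 and Mir344f, at 0.16 to 0.18. With 2 libraries, such likeness says only that both values were near.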

How the data were processed

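The authors deposited whole-number counts for each library against GENCODE M4 on mm10, per the description deposited with the tables. Aligner, counter and trimming are not given in the sources used here. Of 3 count columns (either strand, sense, opposite), the first equalled the sum of the others for every gene. Rows naming no gene stayed out of totals: 35.3% and 36.5% of all reads mapped to several places, 15.6% and 15.2% were unmapped, and 3.99% and 4.14% fell in no gene.

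Identifiers were matched to GENCODE M21 (1894 of 1973 matched). Sense counts were divided by their sum (CPM). Ratios had 0.5 reads added. Detection needed 10 reads in both libraries. Over 411 genes the libraries differed by a chi-square of 85.8 per degree of freedom, so they were counted as separate samples. No conditions could be contrasted with 1 group, and the exact binomial test (threshold 0.05) compares libraries. It was tested on simulated Poisson counts, which hold no spread between pools. That simulation cannot show how the test behaves at the spread seen here. edgeR 4.0.16 in R 4.3.3 gave TMM and RLE factors and the exact test at a fixed BCV of 0.2. Python 3.11.15, scipy 1.17.1, pandas 2.3.3, numpy 2.4.6, matplotlib 3.10.9 and RNAfold 2.7.2 gave the rest. Sequences came from RefSeq (GRCm38.p6), the assembly of mm10.

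The members and lists were chosen with earlier results of these data known. Named genes were the members, the mir-290 to mir-295 hairpins, and hairpins that share a member's seed or carry it shifted by 1 base (the 5 highest and any at 0 reads). Added to these were the 3 genes nearest to each member in level, the miRNA genes on either side and the 3 clusters nearest in sum. Mir20b, Mir92-2, Mir760, Mir7j and the markers named one by one were named outside this rule, after their values were seen. List entries Mir9-1, Mir18a, Mir1a-2, Mir290b, Mir292a and Mir292b matched no symbol under these names and were left out of the lists. Mir18, detected in the cluster from Mir17 to Mir92-1, was counted in no list, and Mir292 was counted under its own name.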

Additional observations from a re-analysis of the deposited data

How the results depend on the processing

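Of 68 alternatives, 62 were labelled the same as the main result, 5 weaker, 1 moved and 0 reversed. Levels and shares, which have no direction or call, were the same if within 1 SD of the mean. With 2 libraries, leaving 1 out always meets that rule, so those entries test nothing. The pseudocount entries reused the main adjusted p-value, and Mir367 stayed at 0 reads throughout. TMM, RLE and counts on either strand moved the summed CPM of the cluster from 639 to between 623 and 637, and with all reads as denominator it was 286. Leaving out a library gave 533 CPM without replicate 1 and 744 without replicate 2. The summed log2 ratio ran from -0.51 with all reads as denominator to -0.43 with TMM or RLE factors. The share of Mir302a ran from 38.4% to 38.8%. Under the edgeR test with BCV set to 0.2, genes called higher in replicate 1 fell from 120 to 5 and members from 3 to 0, since that test allows a spread that the binomial test does not hold. TMM and RLE gave 95 genes, a minimum of 50 reads 112 and a minimum of 1 read in either library 119, each with 3 members called. Mir302c was called under none of them. Scaling moved the share of higher-in-replicate-1 genes among all calls from 61.5% to 51.4%. A test between libraries could not be made with 1 left out. No paired analysis was possible because there was 1 group. For Mir302c, with 154 and 101 reads, depth limits the precision.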
